A study of Mus musculus with 4 samples.

Results

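The barcodes described here are those of a mouse leukaemia single-cell experiment in which transcripts encoded by the mitochondrial genome made up more than 10% of all unique molecular identifiers (UMIs, each standing for 1 counted RNA molecule). They numbered 208 of 5664 barcodes (3.67%), and are called high-mitochondrial barcodes below. The other 5456 are the remaining barcodes. They were chosen by the mitochondrial share itself, so values of that share are a description only. The cells were GFP+ leukaemia cells sorted from bone marrow, 1 sample in each combination of genotype and treatment, namely Hif-1a KO with chemotherapy, Hif-1a wt with chemotherapy, Hif-1a KO with PBS and Hif-1a wt with PBS. All 4 leukaemias arose from c-Kit+ marrow of Hif-1alphaLox/Lox; CreERT2 mice on a C57BL6 background that carried the MLL-AF9 fusion gene by retrovirus, grown in wild type recipients, and the labels give an age of 11 weeks. The protocols in the labels describe 1 mg tamoxifen or vehicle for 5 days from 10 days after transplantation, then 100 mg/kg cytarabine for 5 days with 3 mg/kg doxorubicin for 3 days, or PBS, and collection 3 days after treatment. Cre was driven by tamoxifen in the transplanted cells, and cells of the recipients themselves carried no Cre. Barcodes carry 1 of 4 suffixes. Which sample each suffix stands for was not given in the sources used here, so no genotype or treatment was compared, and high-mitochondrial barcodes were set against the remaining barcodes of their own suffix.

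The mitochondrial genome encodes 13 proteins of the respiratory chain and ATP synthase, and their mRNAs stay inside the organelle. Messenger RNAs of cytosolic proteins are translated on free ribosomes, whereas mRNAs of secreted and membrane proteins are brought to the endoplasmic reticulum (ER) by a hydrophobic stretch of the growing protein, and RNAs such as Malat1 and Xist stay in the nucleus. A high mitochondrial share is commonly used to discard barcodes of damaged cells, since in such cells RNA free in the cytosol can be lost through a leaky plasma membrane while RNA held in organelles is kept. In acute myeloid leukaemia with MLL-AF9 the malignant cells resemble granulocyte and monocyte precursors, which make large amounts of granule proteins on the ER.

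High-mitochondrial barcodes numbered 43 of 1217 in suffix 1 (3.53%), 50 of 1301 in suffix 2 (3.84%), 71 of 1696 in suffix 3 (4.19%) and 44 of 1450 in suffix 4 (3.03%). The exact binomial 95% intervals of these shares, which run together from 2.21 to 5.25%, overlap, and like all intervals here they cover counting error only. Their mitochondrial share ran from 10.04 to 28.99% with a median of 15.2%, against a median of 2.72% in the remaining barcodes. The 5 barcodes just inside the limit lay between 10.04 and 10.23%, and the 5 just outside between 9.72 and 9.94%. High-mitochondrial barcodes were shallow, with medians of 1650, 1603.5, 2019 and 1932.5 UMIs in suffixes 1 to 4, against 6093.5, 6435, 5315 and 5324 UMIs in the remaining barcodes. None had more than 3974 UMIs, and the shallowest had 1189. Because depth differed this much, each result was also taken against 634 remaining barcodes whose non-mitochondrial UMIs lay within the range of the high-mitochondrial barcodes of the same suffix (71, 43, 338 and 182 barcodes), a comparison chosen after the data were seen and called depth-matched. It matches the range and not the median: high-mitochondrial barcodes had medians of 1396, 1370, 1720 and 1600 non-mitochondrial UMIs in suffixes 1 to 4, against 2049, 1980, 2721 and 2607 in the depth-matched barcodes. Of the barcode sequences, 17 occurred in more than 1 suffix, and 2 high-mitochondrial barcodes carry one of them. Scrublet, a doublet caller, marked 25 of all barcodes (0.441%) and none of the high-mitochondrial barcodes, a rate so low that the caller is taken not to have worked.

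**Figure D1:**
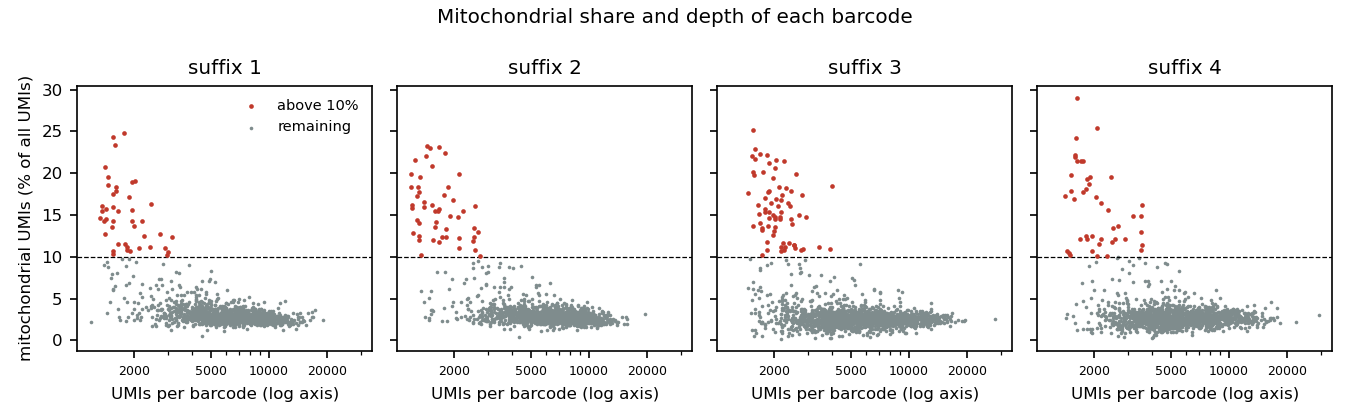
Each point is 1 barcode, with all its UMIs on the x axis (log axis) and the percent of them that came from mitochondrial genes on the y axis, in 1 panel per suffix. Red points lie above the dashed 10% limit and grey points are the remaining barcodes. The 208 red points sit at the shallow end, at no more than 3974 UMIs, in all 4 panels.

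Both quantities that make up the share differed, as the choice of the barcodes largely fixes, and they are given as a description. High-mitochondrial barcodes had medians of 272, 253, 312 and 348.5 mitochondrial UMIs in suffixes 1 to 4, against 183, 186, 137 and 147 in the remaining barcodes. Their non-mitochondrial UMIs had medians of 1396, 1370, 1720 and 1600, against 5933, 6257, 5173 and 5182 in the remaining barcodes. Thinned to 1000 non-mitochondrial UMIs each, which left out 3 high-mitochondrial barcodes of suffix 2 as too shallow, high-mitochondrial barcodes held medians of 654, 654, 662 and 654 genes, against 597, 583, 551 and 554 genes in the remaining barcodes. At equal depth they were thus spread over more genes in every suffix, while unthinned the medians were 861, 816, 1001 and 952 genes, against 2025, 2057, 1697 and 1725 genes.

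The make-up of the mitochondrial RNA differed in some transcripts. mt-Co1, the catalytic subunit of cytochrome c oxidase, held 13.5% of the mitochondrial UMIs in high-mitochondrial barcodes and 16.7% in the remaining barcodes, and was lower in all 4 suffixes. mt-Nd1, a core subunit of complex I, held 12.1% in high-mitochondrial barcodes and 9.78% in the remaining barcodes, and was higher in all 4 suffixes. mt-Atp6 held 24.2% in both, and mt-Co3 held 22.1% in high-mitochondrial barcodes and 21.8% in the remaining barcodes. mt-Cytb, a subunit of complex III, held 8.64% in high-mitochondrial barcodes and 8.10% in the remaining barcodes and was higher in all 4 suffixes. mt-Nd6, the rarest of the 13, held 0.0239% (95% interval 0.0134 to 0.0394) in high-mitochondrial barcodes and 0.0111% (95% interval 0.0091 to 0.0134) in the remaining barcodes. Per barcode, mt-Nd1 had 36.6 UMIs in high-mitochondrial barcodes and 17.2 UMIs in the remaining barcodes. mt-Co1 had 40.7 UMIs in high-mitochondrial barcodes and 29.4 UMIs in the remaining barcodes, so it was more abundant per barcode while its share of the mitochondrial RNA was smaller.

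Counted per barcode, RNA classes differed widely in how much of them high-mitochondrial barcodes held. The 13 mitochondrial mRNAs together averaged 302 UMIs in a high-mitochondrial barcode and 176 UMIs in a remaining barcode, 1.72-fold more, a value that the choice of the barcodes bears on directly. The list of nuclear long noncoding RNAs averaged 57.3 UMIs in high-mitochondrial barcodes and 59.7 UMIs in the remaining barcodes, 0.959-fold, with 42.3, 44.6, 68.7 and 68 UMIs in suffixes 1 to 4, against 47, 49.3, 69.8 and 68.1 UMIs in the remaining barcodes. Their absolute number per barcode was thus nearly the same in both classes. The list of ER machinery averaged 40.3 UMIs in high-mitochondrial barcodes and 54.3 UMIs in the remaining barcodes, 0.743-fold. Abundant cytosolic mRNAs averaged 50.7 UMIs in high-mitochondrial barcodes and 298 UMIs in the remaining barcodes, 0.170-fold. Ribosomal protein mRNAs were the furthest apart of these classes, with 273 UMIs in high-mitochondrial barcodes and 1991 UMIs in the remaining barcodes, 0.137-fold. The total per barcode differs with depth and cell size, so values from here on are shares of the non-mitochondrial UMIs unless given per barcode.

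**Figure D2:**
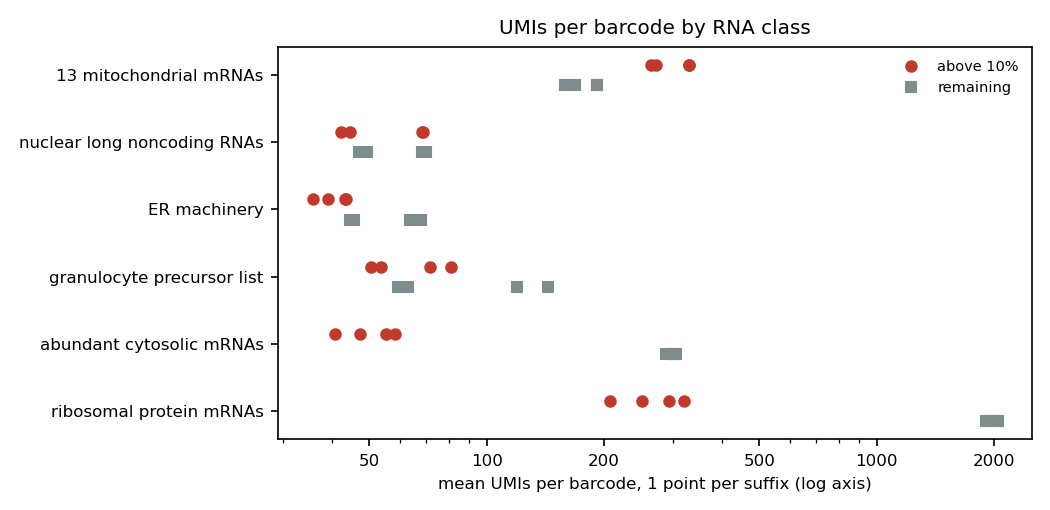
Mean UMIs per barcode (x axis, log axis) for 6 RNA classes, with 1 point per suffix. Red circles are high-mitochondrial barcodes and grey squares the remaining barcodes. Mitochondrial mRNAs lie to the right in high-mitochondrial barcodes, nuclear long noncoding RNAs lie close together, and ribosomal protein and cytosolic mRNAs lie far to the left.

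For each gene, the UMIs observed in high-mitochondrial barcodes were divided by those expected from its share in the remaining barcodes of the same suffix. Of 2947 genes with a mean of at least 50 CPM (UMIs of a gene scaled to 1000000 non-mitochondrial UMIs, summed over the barcodes of a class), 979 (33.2%) were called higher and 411 (13.9%) lower. A call needed at least 1.5-fold, an exact Poisson 95% interval that excludes 1, and the same direction in all 4 suffixes. Barcodes are not replicates and no suffix has a group, so there is no test, and a call describes these barcodes. The median gene stood at a log2 ratio of 0.30, against which the medians of lists are given. Scaled to the median ratio instead, the same rule called 686 genes higher and 890 lower, and with mitochondrial UMIs kept in the total 731 higher and 613 lower. The filter on the mean of both classes lets in genes that only high-mitochondrial barcodes held at that level, and these had to be higher. Of the 979 higher calls, 383 had under 50 CPM in the remaining barcodes. With the filter on the remaining barcodes alone, a choice made after the data were seen, 596 of 2539 genes (23.5%) were higher and 457 (18%) lower, and the median gene stood at 0.0073. Against the depth-matched barcodes, 883 of 3053 genes (28.9%) were higher and 441 (14.4%) lower. Of these calls, 710 higher and 267 lower ones were made in both comparisons, and 1 gene had opposite calls.

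**Figure D3:**
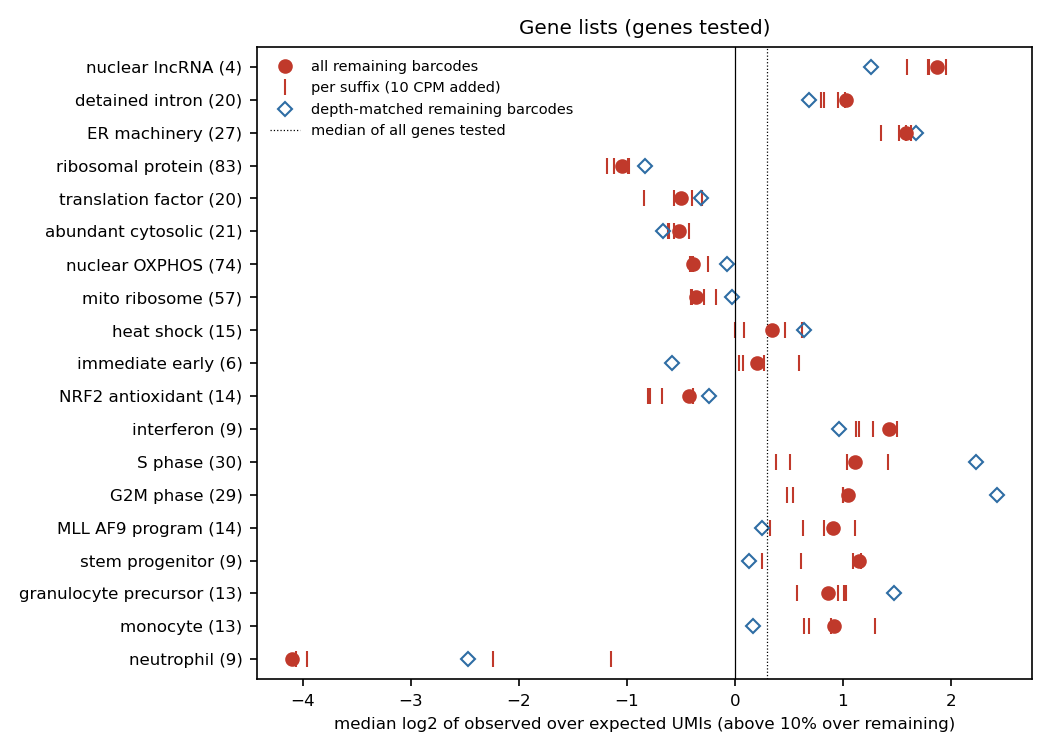
Median log2 ratio of the tested genes of each list (x axis), high-mitochondrial over remaining barcodes, with the number of genes tested in parentheses. Filled circles use all remaining barcodes, ticks are the 4 suffixes (with 10 CPM added to both sides), open diamonds use the depth-matched barcodes and the dotted line is the median of all genes at 0.30. Nuclear and ER lists lie to the right and ribosomal protein, cytosolic and neutrophil lists to the left, under both references.

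Nuclear RNAs took a larger share of the UMIs in high-mitochondrial barcodes. All 4 tested members of the list of nuclear long noncoding RNAs were called higher, with a median log2 ratio of 1.87, and of 1.26 against the depth-matched barcodes. Malat1, an abundant RNA of nuclear speckles, had 22088, 25677, 30900 and 30653 CPM in high-mitochondrial barcodes of suffixes 1 to 4, against 6155, 6322, 10192 and 9934 CPM in the remaining barcodes. The lowest of the first 4 values lay above the highest of the second, and the ratio was 3.28-fold (95% interval 3.22 to 3.35). Against the depth-matched barcodes its log2 ratio was 0.72 in place of 1.72, so the difference was smaller there. Xist, the RNA that coats the inactive X chromosome, had 3940.0, 4558, 6590.0 and 6430.0 CPM in high-mitochondrial barcodes, against 1082, 1094, 1323 and 1361 CPM in the remaining barcodes. The values did not overlap, the ratio was 4.54-fold (95% interval 4.34 to 4.74), and the depth-matched log2 ratio was 1.79. Kcnq1ot1, an antisense RNA that silences neighbouring imprinted genes, had a ratio of 4.08-fold (95% interval 3.36 to 4.91), and Neat1, the scaffold of paraspeckles, one of 2.65-fold (95% interval 2.1 to 3.3). Neat1 had a depth-matched log2 ratio of 0.59, just past the limit of a call. Tsix, the antisense partner of Xist, fell just under the level filter with 31 UMIs in high-mitochondrial barcodes and 6.29 expected. The other members under the filter had at most 3 UMIs. Mir142hg, Ftx and Hotairm1 had 3, 1 and 0 UMIs, with 3.29, 2.49 and 1.41 expected. Mir17hg, Pvt1 and Snhg11 had 2, 1 and 1 UMIs, with 1.03, 0.348 and 0.228 expected. Miat, Airn and Meg3 had 0 UMIs, with at most 0.0182 expected. Kcnq1ot1, Tsix and Xist lie opposite other transcripts, and the strand setting of the counting was not given in the sources used here.

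Genes with transcripts known to be partly held in the nucleus went the same way. Counts per gene cannot tell such transcripts from exported mRNA of the same gene. Of 20 tested genes whose transcripts are known for introns that are spliced late and held in the nucleus, 15 were called higher and 0 lower. Of the 15 calls, 2 passed the filter only through the high-mitochondrial barcodes. Among those with at least 50 CPM in the remaining barcodes, 13 of 18 were higher (72.2%), beside 23.5% of all genes under that filter. The list had a median log2 ratio of 1.03 and a depth-matched median of 0.69, where 10 calls were made. For comparison, the 710 genes in the longest of 4 classes of transcript length had medians of 0.88 and 0.65, and 53% were called higher. The values of that class use the filter on the mean of both classes of barcode. The part of transcript length in the list was not tested. Nktr, a cyclophilin with a splicing-factor tail, led the list at a log2 ratio of 1.61, and Clk1, a kinase of splicing factors, stood at 1.46. Son, a speckle protein, stood at 1.37 and Ogt, the enzyme that adds N-acetylglucosamine to nuclear proteins, at 1.38. Clk1 and Ogt were not called against the depth-matched barcodes. Gm26917 and Gm42418, loci known to collect reads from ribosomal RNA, had log2 ratios of 1.56 and 1.76, and their reads cannot be told apart from those of rRNA copies elsewhere. By annotated type, 9 of 11 long intergenic noncoding RNAs and 5 of 5 antisense RNAs that passed the filter were called higher, beside 33.2% of all tested genes. Some, such as Gm42418 and Brip1os (mean 55.3 CPM, log2 ratio 2.09), passed the filter only through the high-mitochondrial barcodes. Against the depth-matched barcodes, Gm26740, 1700020I14Rik and F630028O10Rik fell short of 1.5-fold, at log2 ratios of 0.15, 0.25 and 0.42. The others called higher reached it.

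ER machinery took a larger share too. Of 27 tested genes for translocation into the ER, folding and glycosylation, 24 were called higher and 3 lower, with a median log2 ratio of 1.59 and a depth-matched median of 1.68. Summed, the list had 27448, 29862, 21789 and 19793 CPM in high-mitochondrial barcodes of suffixes 1 to 4, against 10078, 10458, 7652 and 7538 CPM in the remaining barcodes and 10008, 10815, 7368 and 7014 CPM in the depth-matched barcodes. Every suffix was higher in its high-mitochondrial barcodes, by 2.78-fold (95% interval 2.72 to 2.84) in all. Rpn1, a membrane subunit of the complex that attaches sugar chains, had 1039.9, 1119, 1162 and 793 CPM in high-mitochondrial barcodes, against 277, 281, 174 and 177 CPM in the remaining barcodes, a ratio of 4.8-fold (95% interval 4.32 to 5.32). Its partner Rpn2 had 820.2, 1105, 1241 and 1145 CPM in high-mitochondrial barcodes, against 262, 271, 228 and 236 CPM in the remaining barcodes, a ratio of 4.52-fold (95% interval 4.08 to 4.99). For both genes the groups of 4 values did not overlap. Hspa5, the main chaperone of the ER lumen, had 2505, 2569, 1681 and 1535 CPM in high-mitochondrial barcodes, against 659, 617, 345 and 332 CPM in the remaining barcodes, a ratio of 4.33-fold (95% interval 4.02 to 4.67). The lumenal chaperones Calr and Hsp90b1 had log2 ratios of 1.96 and 2.02, and Pdia6, which rearranges disulfide bonds, one of 2.15. Per barcode, Hspa5 had 3.33 UMIs in high-mitochondrial barcodes and 2.93 UMIs in the remaining barcodes, so its number was as high in the shallower barcodes.

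The 3 members that fell encode the smallest proteins of the list. Sec61b and Sec61g are the small subunits of the Sec61 channel, and Ost4 is a small subunit of the same sugar-transferring complex as Rpn1. Sec61b had 425, 414, 401 and 327 CPM in high-mitochondrial barcodes, against 944, 1111, 981 and 923 CPM in the remaining barcodes, a ratio of 0.396-fold (95% interval 0.333 to 0.469). Sec61g had a log2 ratio of -1.06 and Ost4 one of -1.20, and all 3 were also called lower against the depth-matched barcodes. Sec61b is known as a tail-anchored protein, whose only hydrophobic stretch lies close to the end of the chain and is inserted after translation. The coding sequences below show where the most hydrophobic window of 19 residues lies in Rpn1 and Sec61b, in Elane, a secreted granule protease, and in Tmsb4x, a cytosolic protein, since these genes represent the classes that differed. They are taken from GENCODE M21 on GRCm38, read on the strand of the gene, with the 57 bases of the window in capitals and 9 bases on each side in lower case.
Rpn1: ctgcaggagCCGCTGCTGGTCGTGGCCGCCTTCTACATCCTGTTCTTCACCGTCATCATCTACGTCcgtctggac
Elane: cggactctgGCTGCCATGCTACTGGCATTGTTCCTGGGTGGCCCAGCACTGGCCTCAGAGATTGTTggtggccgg
Sec61b: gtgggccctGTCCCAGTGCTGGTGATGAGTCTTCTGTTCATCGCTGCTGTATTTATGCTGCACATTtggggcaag
Tmsb4x: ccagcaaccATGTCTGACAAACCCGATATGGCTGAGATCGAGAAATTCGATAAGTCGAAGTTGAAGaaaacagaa
The Rpn1 gene (chr6:88084482-88105304, plus strand) encodes 608 residues, with the window at residues 440 to 458 and a mean Kyte-Doolittle value of 2.57, where positive values are hydrophobic. The Elane gene (chr10:79886247-79888215, plus strand) encodes 265 residues, with the window at residues 12 to 30 and a mean of 1.83. The Sec61b gene (chr4:47474658-47483242, plus strand) encodes 96 residues, with the window at residues 71 to 89 and a mean of 2.55. The Tmsb4x gene (chrX:167207093-167209315, minus strand) encodes 44 residues, and its most hydrophobic window, at residues 1 to 19, has a mean of -1.24. Rpn1 and Elane had log2 ratios of 2.26 and 1.23, and Sec61b and Tmsb4x had -1.33 and -1.72.

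Across all tested genes, those that encode a hydrophobic window stood higher. Of 660 genes with a window of at least 1.8, 71.5% were called higher and 3.94% lower, with a median log2 ratio of 1.21. Of 2178 genes without one, 21.3% were called higher and 16.5% lower, with a median of 0.08. Against the depth-matched barcodes the medians were 0.93 with a window and 0.14 without. Among genes with at least 50 CPM in the remaining barcodes, 63.4% of 456 with a window were higher and 6.14% lower (median 0.96), and 14.1% of 1980 without one were higher and 20.1% lower (median -0.12). The window classes were chosen after the data were seen, and they hold transmembrane segments, signal peptides and buried segments alike. Longer transcripts also stood higher, with medians of -0.41, 0.17, 0.56 and 0.88 in 4 classes of near equal size from the shortest to the longest transcripts. Within each class genes with a window were the higher ones, with medians of 0.72, 1.10, 1.35 and 1.43 with a window, against -0.54, -0.0049, 0.32 and 0.68 without. Leaving out the ER, granulocyte precursor and ribosomal lists, the medians were 1.21 with a window and 0.12 without. The length classes and these last medians use the filter on the mean of both classes. Of the 660 genes with a window, 211 passed it only through the high-mitochondrial barcodes, and 183 of these were higher. Of the 2178 without one, 309 did, and 186 of these were higher. The length classes were not repeated with the filter on the remaining barcodes alone. UMIs were counted at one end of the transcripts, and genes are not independent of each other, so the shares are a description of these barcodes.

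**Figure D4:**
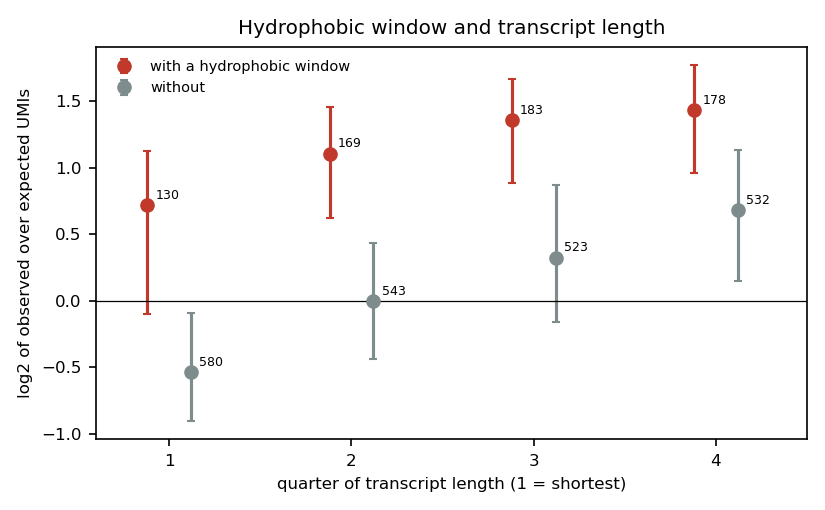
Median log2 ratio, high-mitochondrial over remaining barcodes (y axis), by class of transcript length (x axis, 4 classes of near equal size), for genes with (red) and without (grey) a window of 19 residues with a mean Kyte-Doolittle value of at least 1.8. Bars run from the 25th to the 75th percentile of the genes, and the number beside each point is its count of genes. In every length class the red median lies above the grey one.

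Ribosomal protein mRNAs took a smaller share. Of 83 tested ribosomal protein genes, 76 were called lower and 0 higher (median log2 ratio -1.04), and 58 were lower against the depth-matched barcodes (median -0.83). Summed, they had 157922, 142682, 178339 and 162651 CPM in high-mitochondrial barcodes, against 302077, 314227, 343435 and 331808 CPM in the remaining barcodes. The groups of 4 values did not overlap, and the list's share was 0.5-fold (95% interval 0.496 to 0.504). Rps24, a protein of the small subunit, was the lowest of the list at 1875, 1533, 1972 and 1849.7 CPM in high-mitochondrial barcodes, against 4153, 4342, 6188 and 6088 CPM in the remaining barcodes. Rpl32, of the large subunit, had a ratio of 0.37-fold (95% interval 0.348 to 0.392). Ribosomal protein genes have many near-identical copies in the genome, and 6 of 6 tested processed pseudogenes were lower as well, so reads may be split between them.

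Cytosolic mRNAs other than those of the ribosome were lower in part. Of 21 abundant ones, 10 were called lower and 0 higher (median log2 ratio -0.52). Tmsb4x, an actin-binding peptide, had 3208, 2997, 2828 and 3045 CPM in high-mitochondrial barcodes, against 7477, 8153, 11012 and 11679 CPM in the remaining barcodes, a ratio of 0.303-fold (95% interval 0.284 to 0.322). All 4 values lay below those of the remaining barcodes, and the depth-matched log2 ratio was -2.06. Actb, which encodes beta-actin, stood at a log2 ratio of -0.83 and at -1.76 against the depth-matched barcodes. Gapdh, an enzyme of glycolysis, stood at -0.66, but at 0.013 against the depth-matched barcodes, where its direction turned. Of 20 translation factors and associated proteins, 8 were lower and 1 higher. Tpt1, whose mRNA is regulated like that of ribosomal proteins, had a log2 ratio of -1.42, Naca, which binds nascent chains, one of -1.26, and Eif3a, the largest subunit of its initiation complex, one of 0.81. Eef1a1, the most abundant of the list, stood at -0.39 and was not called.

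The 10 genes with the highest ratios follow as a description, since 9 of them had under 50 CPM in the remaining barcodes and passed the filter only through the high-mitochondrial barcodes. Mogs, which trims the first glucose from new sugar chains in the ER, had 87.9, 166, 110.0 and 75.5 CPM in high-mitochondrial barcodes, against 14, 17.9, 12 and 11.1 CPM in the remaining barcodes, a ratio of 8.15-fold (95% interval 5.77 to 11.2). Ncapd2, a subunit of condensin, had 62 UMIs in high-mitochondrial barcodes and a ratio of 8.06-fold (95% interval 6.18 to 10.3). Tmem109, a membrane protein of the nucleus and ER, had a ratio of 7.58-fold (95% interval 6 to 9.44). Alg8, a glucosyltransferase of the ER membrane, had a ratio of 7.34-fold (95% interval 5.33 to 9.85). The others were Rad54l, a DNA repair motor, at a log2 ratio of 2.70, Atp13a1, an ATPase of the ER membrane, at 2.67, and Nup210, a membrane protein of the nuclear pore, at 2.66. Slc19a1, a folate transporter, stood at 2.60, Pigu, part of the enzyme that attaches lipid anchors in the ER, at 2.59, and Atp2a2, the calcium pump of the ER, at 2.51. All 10 also had depth-matched log2 ratios above 2. Among the 10 lowest genes, 8 are known from neutrophils, and the others were Cwc15, a spliceosome protein, at -2.19 and Lgals3, a sugar-binding lectin of monocytes and macrophages, at -2.05. Stfa1, BC100530 and Gm5483 of that group are near-identical copies of a protease inhibitor gene, so their reads may be split.

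Genes of granulocyte precursors were higher in the high-mitochondrial barcodes. Of 13 tested genes of that list, 8 were called higher and 1 lower, with a median log2 ratio of 0.86 and a depth-matched median of 1.47. Of the 8 higher calls, 1 passed the filter only through the high-mitochondrial barcodes. With the filter on the remaining barcodes alone, 7 of 13 were higher and 2 lower (median 0.67), beside 23.5% of all genes higher. Ctsg, a protease of primary granules, had 13489.8, 14130, 7713 and 7965 CPM in high-mitochondrial barcodes, against 3823, 4006, 1349 and 1485 CPM in the remaining barcodes, a ratio of 4.23-fold (95% interval 4.1 to 4.37). Mpo, the myeloperoxidase of the same granules, had 6049, 8964, 1932 and 1849.7 CPM in high-mitochondrial barcodes, against 2232, 2581, 455 and 457 CPM in the remaining barcodes, a ratio of 3.36-fold (95% interval 3.19 to 3.53). Suffixes 1 and 2 were higher than suffixes 3 and 4 in both classes of barcode, so Mpo was higher within each suffix although the values of the classes overlap across suffixes. Elane, neutrophil elastase, had a ratio of 2.35-fold (95% interval 2.27 to 2.43), and Prtn3, a related protease, one of 1.82-fold (95% interval 1.73 to 1.91). Cebpe, a nuclear transcription factor that drives later granulocyte maturation, was lower at 43.9, 41.4, 47.1 and 37.7 CPM in high-mitochondrial barcodes, against 172, 208, 142 and 137 CPM in the remaining barcodes. Calr belongs to this list and to the ER list. Gstm1, a cytosolic enzyme of the list, stood at a log2 ratio of -0.48 and was not called. The parts of cell type and of translation on the ER in these values were not tested. In the 52 high-mitochondrial barcodes outside the cluster that holds most of them (the main cluster), the median of the list was -0.12, against 0.86 in all, so its direction turned there.

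Summed over barcodes, markers of mature neutrophils were lower in high-mitochondrial barcodes, while single barcodes mostly overlapped. Of 208 high-mitochondrial barcodes, 11 gave a larger share of their UMIs to the list than the 95th percentile of the remaining barcodes of the suffix, and 14 a smaller one than the 5th (5.29 and 6.73%). The median share was 0.0757, 0.0886, 0.239 and 0.158% in high-mitochondrial barcodes of suffixes 1 to 4, against 0.0511, 0.0634, 0.258 and 0.249% in the remaining barcodes. Of 9 tested genes, 6 were called lower and 0 higher (median log2 ratio -4.10), and 2 were lower against the depth-matched barcodes (median -2.47). S100a9, a calcium-binding protein of neutrophils, had 0, 0, 173 and 62.9 CPM in high-mitochondrial barcodes, against 202, 445, 5100.4 and 3351 CPM in the remaining barcodes. The zeros in suffixes 1 and 2 allow up to 43.9 and 41.4 CPM (3 UMIs). Summed, the list had 1875, 3094, 3189 and 3637 CPM in high-mitochondrial barcodes, against 1666, 2618, 24016 and 19558 CPM in the remaining barcodes. In suffixes 1 and 2 the sum, which Lyz2 dominates, was thus no lower in high-mitochondrial barcodes, although S100a9 was. The highest share of non-mitochondrial UMIs that a single high-mitochondrial barcode gave to the list was 1.33, 5.07, 1.64 and 2.95% in suffixes 1 to 4, against 32.9, 33.0, 46.0 and 47.7% in the remaining barcodes. The list was highest in the bin of at most 2% mitochondrial UMIs, with 43805, 4874, 2249.7, 2394, 3615 and 2323 CPM as medians over suffixes from the lowest to the highest bin of mitochondrial share. Lyz2, which monocytes share, had 1553, 2611, 2058 and 2982 CPM in high-mitochondrial barcodes, against 432, 724, 4566 and 5441 CPM in the remaining barcodes, higher in suffixes 1 and 2 and lower in suffixes 3 and 4, and reads may be shared with its copy Lyz1.

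Monocyte and progenitor lists had raised medians against all remaining barcodes, and lower ones against the depth-matched barcodes. Of 13 monocyte genes, 7 were higher and 3 lower, with a median log2 ratio of 0.92 and a depth-matched median of 0.17. Ly6c2, a surface protein of inflammatory monocytes, had 9184, 9807, 7501 and 6443 CPM in high-mitochondrial barcodes, against 2236, 3037, 3050.3 and 3182 CPM in the remaining barcodes, and its depth-matched log2 ratio was 1.83. Ly6c1 is a near-identical copy, so its reads may be split. Csf1r, the receptor for macrophage colony-stimulating factor, had a log2 ratio of 1.37 and 0.55 against the depth-matched barcodes, where it was not called. The 3 lower members were Lgals3, the calcium-binding protein S100a6 at -1.66 and Ifitm3, an antiviral membrane protein. Of 9 stem and progenitor genes, 6 were higher and 0 lower, with a median of 1.15 and a depth-matched median of 0.13. Of these 6 calls, 2 passed the filter only through the high-mitochondrial barcodes, as did 1 of the 7 higher monocyte genes. Among genes with at least 50 CPM in the remaining barcodes, 4 of 7 progenitor genes (median 0.93) and 6 of 12 monocyte genes (median 0.72) were higher. The share over all genes under that filter was 23.5%. Flt3, a receptor of early progenitors, had 322, 318, 369 and 478 CPM in high-mitochondrial barcodes, against 107, 91.6, 103 and 116 CPM in the remaining barcodes, with a depth-matched log2 ratio of 1.08. Cd34, a surface marker of progenitors, stood at a log2 ratio of 1.38 and at 0.92. Sox4, Myb, Lyl1 and Spi1, some of the nuclear factors of the list, stood at depth-matched log2 ratios of 0.13, 0.11, 0.07 and -0.81. Of these, Spi1 was called lower there, and of all 9 tested genes 4 were called higher and 1 lower. Sox4, Myb and Lyl1 were named after their values were seen or as defining markers. Meis1, another nuclear factor of the list, is given below, so no split by place of the protein is drawn.

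Genes of the MLL-AF9 programme were present in the high-mitochondrial barcodes. Flt3, Meis1 and Myb stand in this list and in that of progenitors. Of 14 tested genes, 9 were called higher and 0 lower, with a median log2 ratio of 0.91, and 5 higher and 1 lower against the depth-matched barcodes (median 0.25). Of the 9 higher calls against all remaining barcodes, 4 passed the filter only through the high-mitochondrial barcodes. Of the 10 genes with at least 50 CPM in the remaining barcodes, 5 were higher (50%, median 0.72), beside 23.5% of all genes under that filter. Bcl2, an inhibitor of apoptosis, had 674, 442, 895 and 579 CPM in high-mitochondrial barcodes, against 161, 141, 159 and 159 CPM in the remaining barcodes, a ratio of 4.4-fold (95% interval 3.86 to 5). Zeb2, a nuclear repressor, stood at a log2 ratio of 1.70 and Meis1, a partner of Hox proteins, at 1.16. Hoxa9, a main target of the fusion, stood at 0.56 and was not called.

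Lists of other cell types differed in what they left in the high-mitochondrial barcodes. The erythroid list had 7 UMIs (14.0 expected), the T and NK cell list 5 (2.23 expected) and the megakaryocyte list 4 (1.70 expected) over all 208 barcodes, each with an interval of the ratio that includes 1, and no gene of these lists or of the eosinophil list passed the level filter. The eosinophil list had 16 UMIs (54.7 expected), the macrophage list 353 (409.8 expected), the dendritic list 350 (151 expected), the stromal and endothelial list 250 (211 expected), the mast cell and basophil list 78 (71.4 expected) and the B cell list 67 (27.4 expected). Their part in the results was not tested. Of the B cell list, Cd79b alone was tested and stood at a log2 ratio of 1.31. All 3 tested genes of the dendritic list were higher (Flt3, Bst2 and Tcf4), and 1 of 2 each in the lists of mast cells and basophils (the protease Mcpt8) and of stroma and endothelium (the adhesion protein Pecam1). The macrophage list had 2 of 4 genes higher, with a median of 0.65 that turned to -0.44 against the depth-matched barcodes, and its member Adgre1, the antigen F4/80, stood at 0.91 and turned to -0.18. Of the 2 higher calls of the macrophage list, 1 passed the filter only through the high-mitochondrial barcodes.

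Stress lists are given beside the 33.2% of all tested genes called higher. Of 6 tested immediate early genes, 1 was called higher and 0 lower, with a median log2 ratio of 0.21 and a depth-matched median of -0.58, where 0 were called, and of -0.19 when scaled to the median ratio. Jun, a transcription factor induced by many stresses, had 73.2, 96.7, 126 and 101 CPM in high-mitochondrial barcodes, against 38.3, 35.9, 38.9 and 45.6 CPM in the remaining barcodes, a ratio of 2.61-fold (95% interval 1.83 to 3.62) from 36 UMIs. It passed the filter only through the high-mitochondrial barcodes, and its depth-matched log2 ratio of 0.58 was not called. Of the 4 immediate early genes with at least 50 CPM in the remaining barcodes, 0 were called. The whole list of 24 genes summed to 937, 801, 1053 and 1258 CPM in high-mitochondrial barcodes, against 743, 688, 1047 and 1139 CPM in all and 1200.4, 1215, 2034 and 2376 CPM in the depth-matched remaining barcodes. Its ratio to all remaining barcodes was 1.1-fold (95% interval 0.987 to 1.22), an interval that includes 1, and it lay below the depth-matched barcodes in each suffix.

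Of 15 tested heat shock genes, 3 were higher and 1 lower, with a median log2 ratio of 0.35, close to that of all genes, and of -0.037 when scaled to the median ratio. Against the depth-matched barcodes 5 were higher and 0 lower (median 0.64). Hspa9 and Hspd1, chaperones of the mitochondrial matrix, had ratios of 2.46-fold (95% interval 2.03 to 2.95) and 1.86-fold (95% interval 1.58 to 2.18), and Hsp90aa1, a cytosolic chaperone, stood at a log2 ratio of 0.76. Hspd1 turned to -0.23 in the 52 barcodes outside the main cluster. Hspe1, the small partner of Hspd1, was lower at -0.73, and at -0.27 without a call against the depth-matched barcodes. Hspa8, the constitutive cytosolic Hsp70 chaperone, stood at 0.36 without a call. Of 6 tested genes of the integrated stress response, 2 were higher, namely Slc3a2, an amino acid transporter chain, with a ratio of 3.74-fold (95% interval 3 to 4.6) and Shmt2, a mitochondrial enzyme of one-carbon metabolism, at a log2 ratio of 1.00. Of these 2 calls, 1 passed the filter only through the high-mitochondrial barcodes. Of the 5 genes of the list with at least 50 CPM in the remaining barcodes, 1 was higher (20%), beside 23.5% of all genes under that filter. The median of the list was 0.70, and against the depth-matched barcodes 4 of 6 were higher (median 1.84), including Phgdh and Psat1, enzymes of serine synthesis. Atf4, the factor that drives this response, stood at 0.13 and was not called.

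Genes of p53, apoptosis and oxidative stress did not move together. Of 4 tested p53 targets, Ei24, an ER membrane protein, was higher at a log2 ratio of 0.70 (-0.17 in the 52 barcodes outside the main cluster) and Rps27l, a ribosomal protein homologue, was lower at -1.10. Of 9 apoptosis genes, Bcl2 was higher and Cycs, which encodes cytochrome c, lower at -0.75, while Bax, a pore-forming protein, stood at 0.05. Of 14 antioxidant genes, 6 were lower and 1 higher. Prdx4, a peroxiredoxin of the ER, had 176, 207, 259 and 390.1 CPM in high-mitochondrial barcodes, against 41.9, 40.9, 75.4 and 95 CPM in the remaining barcodes, a ratio of 3.96-fold (95% interval 3.19 to 4.86). Prdx5, a peroxiredoxin of mitochondria and cytosol, had 278, 262, 369 and 528 CPM in high-mitochondrial barcodes, against 740.2, 858, 1191 and 1204 CPM in the remaining barcodes, a ratio of 0.353-fold (95% interval 0.294 to 0.42). The 2 genes of one family thus lay on opposite sides without overlap. The other lower members were the glutathione peroxidases Gpx1 and Gpx4, thioredoxin Txn1 and the ferritin chains Fth1 and Ftl1.

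Of 9 tested interferon-regulated genes, 7 were higher and 1 lower, the median log2 ratio being 1.43 and the depth-matched median 0.96. Of the 7 higher calls, 1 passed the filter only through the high-mitochondrial barcodes. Among those with at least 50 CPM in the remaining barcodes, 6 of 8 were higher (75%, median 1.32), beside 23.5% of all genes under that filter. The higher ones include the class I antigens H2-K1, H2-D1 and B2m and Tap1, the transporter that loads them with peptides in the ER. H2-K1 had 2578, 2942, 2458 and 2731 CPM in high-mitochondrial barcodes, against 749.7, 853, 595 and 652 CPM in the remaining barcodes, and Tap1 had a ratio of 4.68-fold (95% interval 3.85 to 5.62). H2-K1 and H2-D1 are similar in sequence, so reads may be shared. Ifitm3, a small membrane protein, was lower at a log2 ratio of -1.64. Isg15, Irf7 and Ifit3, which respond to interferon most directly, had 2, 0 and 0 UMIs in high-mitochondrial barcodes and did not pass the filter. Of 5 inflammatory genes of the NF-kB list, 1 was higher, the chemokine Ccl9 at 1.00, while against the depth-matched barcodes 0 were higher and 3 lower. Hif1a, the gene targeted in the Hif-1a KO samples only, was below the filter with 13 UMIs in high-mitochondrial barcodes and 11.4 expected. Of 4 hypoxia genes 2 were lower, Lgals3 and the mitophagy receptor Bnip3l at -0.77. Of 10 glycolysis genes, Gapdh was lower and 0 were higher, while 3 were higher and 1 lower when set against the depth-matched barcodes.

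Some cell cycle genes were called higher, and more of them against the depth-matched barcodes. Of 30 tested S phase genes, 17 were called higher and 0 lower, with a median log2 ratio of 1.11 and a depth-matched median of 2.23. Of 29 genes of G2 and M phase, 14 were higher and 0 lower, with a median of 1.05 and a depth-matched median of 2.43. Of these higher calls, 7 in S phase and 9 in G2 and M phase passed the filter only through the high-mitochondrial barcodes. Among those with at least 50 CPM in the remaining barcodes, 10 of 22 S phase genes were higher (45.5%, median 0.72). The same held for 5 of 17 genes of G2 and M phase (29.4%, median 0.46), beside 23.5% of all genes under that filter. With 10 CPM added to both sides, the medians in suffixes 1 to 4 were 0.39, 0.51, 1.41 and 1.04 for S phase. For G2 and M phase they were 0.54, 0.49, 1.01 and 1.00. Top2a, which untangles chromosomes, had 571, 594, 518 and 780.2 CPM in high-mitochondrial barcodes, against 123, 102, 103 and 116 CPM in the remaining barcodes, a ratio of 5.52-fold (95% interval 4.8 to 6.32). Mki67, a coat of mitotic chromosomes, stood at a log2 ratio of 2.38, and Rrm2, a subunit that makes DNA precursors, at 1.20. Other genes of the same lists were not called, with log2 ratios of -0.46 for Cks2, -0.14 for Cks1b and -0.14 for Hmgb2. Top2a had 68.6, 12.2, 27.9 and 21.6 CPM in the depth-matched barcodes of suffixes 1 to 4, below all remaining barcodes, so the larger ratio there went with a lower reference.

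Among mitochondrial proteins encoded in the nucleus, most genes were not called, and the balance of calls moved with the reference. Of 74 tested genes of the respiratory chain and ATP synthase, 4 were higher and 24 lower, with a median log2 ratio of -0.39, and 9 higher and 9 lower against the depth-matched barcodes (median -0.08). Summed, they had 20476, 20028, 19888 and 19768 CPM in high-mitochondrial barcodes, against 26660.4, 26926, 24326 and 22421 CPM in the remaining barcodes. Of 57 genes of the mitochondrial ribosome, 1 was higher and 13 lower (median -0.36). Against the depth-matched barcodes 5 were higher and 3 lower (median -0.026). Of 23 genes of import and dynamics, 2 were higher and 6 lower, against 6 higher and 3 lower for the depth-matched barcodes (median 0.092), with Timm50, a receptor of the inner membrane, at 1.22 (but -0.50 in the 52 barcodes outside the main cluster) and Tomm7, a small subunit of the outer membrane channel, at -1.16. Of 6 tested genes of mitochondrial gene expression, Lonp1, a matrix protease, was called higher, with 58.6, 82.9, 157 and 75.5 CPM in high-mitochondrial barcodes, against 39.5, 38.1, 23.4 and 27.2 CPM in the remaining barcodes. It passed the filter only through the high-mitochondrial barcodes, and 0 of the 4 genes of that list with at least 50 CPM in the remaining barcodes were called. Tfam, which packs mitochondrial DNA, stood at 0.63 and was not called.

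Levels were also followed over the whole range of the mitochondrial share. From the lowest to the highest of the bins 0 to 2, 2 to 4, 4 to 6, 6 to 10, 10 to 15 and 15 to 30%, which hold 758, 4205, 360, 133, 101 and 107 barcodes, the ER list had 8557, 8955, 8927, 13249.8, 21979 and 27878 CPM as medians over the 4 suffixes. The nuclear long noncoding RNAs had 10322, 9114, 11697, 18295, 31628 and 36599 CPM over the same bins. The ribosomal protein genes had 290524, 329406, 329542, 282932, 163770 and 155503 CPM. ER and nuclear levels were thus raised already in the bin of 6 to 10%, and the ribosomal share had its largest step across the 10% limit. Mpo had 1119.6, 1379.8, 1244, 2366, 1836 and 7279.6 CPM, Rpn1 192, 231, 231, 377, 770.3 and 1385 CPM and Tmsb4x 12209.5, 9083, 8687, 5687, 3527 and 2346 CPM. Between the bins of 6 to 10% and 10 to 15%, Mpo was lower in the higher bin in suffixes 1 and 4 and higher in suffixes 2 and 3. Median depth fell along the upper bins, to 2724, 1747 and 1397 non-mitochondrial UMIs in the highest 3 bins, and its part in the trend was not tested. Each suffix had at least 19 barcodes in every bin, and suffix 1 had fewer than 20 in the highest.

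**Figure D5:**
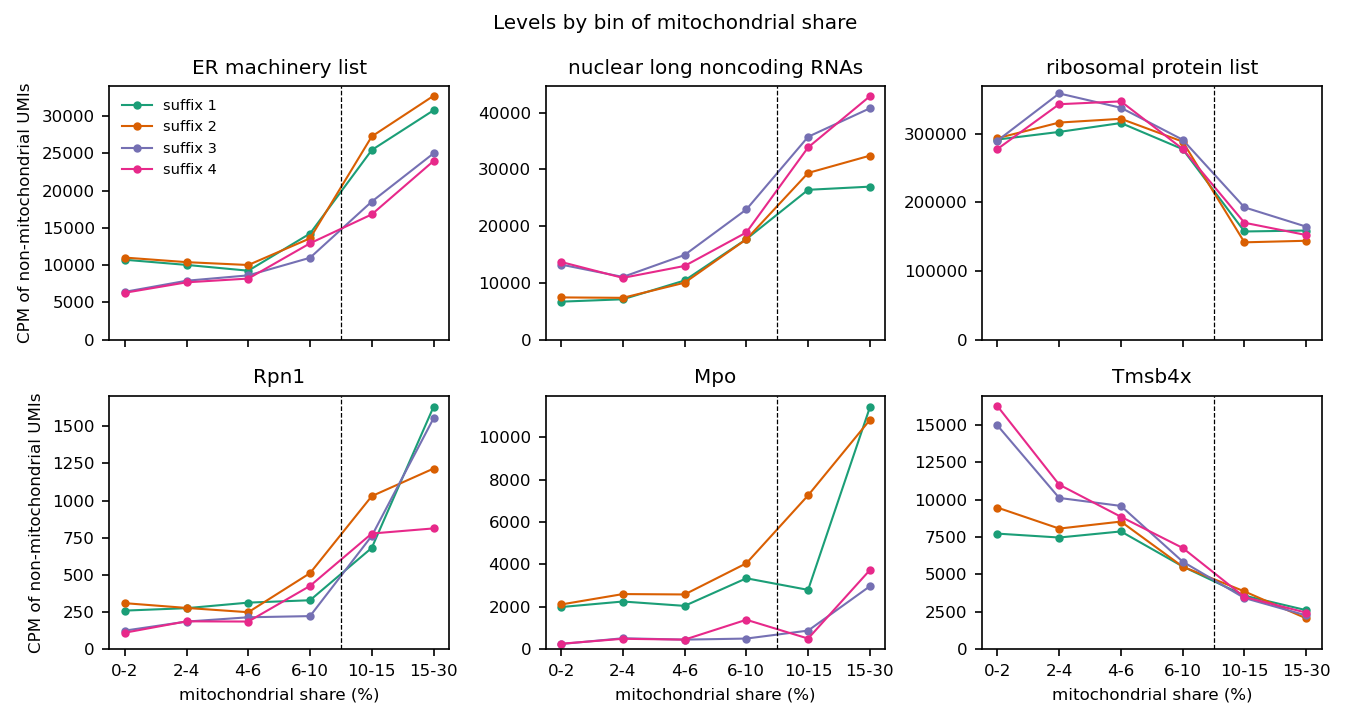
CPM of non-mitochondrial UMIs (y axis) by bin of mitochondrial share (x axis), 1 line per suffix, for 3 gene lists and 3 genes. The dashed line marks the 10% limit. ER machinery, nuclear long noncoding RNAs and Rpn1 are highest in the bins above the limit, and ribosomal protein genes and Tmsb4x are lowest there, in all 4 suffixes.

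The high-mitochondrial barcodes were mostly alike. With mitochondrial genes left out of the clustering, 156 of the 208 fell into 1 of 13 clusters, from all 4 suffixes (32, 40, 52 and 32). That cluster held 20 other barcodes, of which 19 had over 5% mitochondrial UMIs (median 8.57%). The other 52 were spread over 10 clusters, with at most 10 in one, and had a median mitochondrial share of 13.9%, against 15.6% inside the main cluster. Clusters were drawn from 2000 variable genes of the same counts, so this says where the barcodes lie and supports no gene's difference. In single barcodes, the ER list took a larger share than the 95th percentile of the remaining barcodes of the suffix in 174 of 208 (83.7%). Ribosomal protein genes lay below the 5th percentile in 172 of 208 (82.7%), and nuclear long noncoding RNAs above the 95th in 135 (64.9%). For the 52 barcodes outside the main cluster, the ER list had a median log2 ratio of 0.73, nuclear long noncoding RNAs 1.45 and ribosomal protein genes -0.49, against 1.59, 1.87 and -1.04 in all 208, so the directions were the same and all 3 values were closer to 0.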

How the data were processed

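UMI counts per gene and barcode were used as deposited by the authors, in 1 table of 5664 barcodes and 27998 genes. Per the submitters' processing notes and design text they came from 10x Chromium V2 libraries, aligned to mm10 with Cell Ranger 1.3. Seurat is given as 2.3.4 in the processing notes and as 1.4 in the design text. The gene annotation was not given in the sources used here.

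Members were barcodes with more than 10% of their UMIs from 13 mitochondrial genes, and the members and gene lists were chosen with earlier results of these data known. Suffixes were treated as 4 samples with no group, so no p-value was computed. Observed UMIs of the members were divided by those expected from the remaining barcodes of the same suffix over non-mitochondrial UMIs, with exact Poisson 95% intervals, for genes with a mean of at least 50 CPM (the mean of both classes). Named genes were the 10 highest and 10 lowest calls, mitochondrial and nuclear noncoding genes, and from each list the 2 most abundant and the 2 others with the largest ratios, with defining cell type markers. Actb, Atf4, Cebpe, Cks1b, Cks2, Csf1r, Eif3a, Fth1, Gpx4, Gstm1, Hoxa9, Hsp90aa1, Hsp90b1, Hspe1, Ifit3, Ifitm3, Irf7, Isg15, Lyl1, Meis1, Mpo, Myb, Ogt, Ost4, Pdia6, Prtn3, Rrm2, Sec61b, Sec61g, Son, Sox4, Txn1 and Zeb2 were added after their values were seen, or as defining markers. Clusters used scanpy 1.11.5 with 2000 variable genes, 30 components, 15 neighbours and Leiden resolution 1, with mitochondrial genes left out. Gene positions, lengths and protein sequences came from GENCODE M21 (97.4% of tested genes matched), and hydropathy is the highest Kyte-Doolittle mean over 19 residues. The calling step was checked on simulated counts. Alternatives covered the limit, scale, reference, depth, filter, fold and doublets. Those that matched depth, filtered on the remaining barcodes alone, took a reference at or under 5%, left out the main cluster or changed the hydropathy limit were chosen after seeing the data. Computation used Python 3.11.15, numpy 2.4.6, scipy 1.17.1 and pandas 2.3.3.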

Additional observations from a re-analysis of the deposited data

How the results depend on the processing

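Directions of the lists of nuclear long noncoding RNAs, ER machinery and ribosomal protein genes held under every alternative run, while sizes moved. In this order, their median log2 ratios were 1.24, 0.90 and -0.35 with a limit of 5% (granulocyte precursors 0.42; 429 barcodes; 544 genes higher and 87 lower). With a limit of 8% the ER list had 1.41 and ribosomal genes -0.83. With 15% (107 barcodes, 3 suffixes with enough) they were 2.08, 1.74 and -1.14, granulocyte precursors 1.12, immediate early genes -0.25 and Adgre1 -0.16. With 20% (31 barcodes) the nuclear list had 2.05, ribosomal genes -1.32, granulocyte precursors 1.32 and Cycs 0.0053, with 514 genes higher and 255 lower. With shares over all UMIs the 3 lists had 1.67, 1.39 and -1.24. Scaled to the median ratio they had 1.48, 1.21 and -1.45, immediate early genes -0.19, heat shock genes -0.037 and granulocyte precursors 0.49, with 890 genes lower. Against remaining barcodes weighted to the same clusters they had 0.99, 0.78 and -0.78, heat shock genes 0.036 and granulocyte precursors 0.44, with 483 genes higher and 247 lower, of which 402 and 193 were also called in the comparison reported above. For the main cluster that reference was only 7, 6 and 5 barcodes in suffixes 1, 2 and 4. The 20 remaining barcodes of that cluster had 4.86 to 9.94% mitochondrial UMIs. Suffix 3 had 2 there, under the 5 required, so all its remaining barcodes were used and its 52 high-mitochondrial barcodes of that cluster were not matched. The nuclear list had 1.69 as a median over suffixes, 2.03 with a filter of 20 CPM (1607 genes higher) and 1.62 without a filter (1824 genes higher; macrophage list -0.051). With the filter on the remaining barcodes alone, 596 genes were higher, all of them among the 979, and immediate early genes had -0.074. A fold of 2 left 184 genes lower. Against depth-matched barcodes the nuclear list had 1.26, ribosomal genes -0.83, immediate early genes -0.58, granulocyte precursors 1.47, the macrophage list -0.44, Gapdh 0.013 and Adgre1 -0.18. In the 52 barcodes outside the main cluster the 3 lists had 1.45, 0.73 and -0.49, immediate early genes 0.46, granulocyte precursors -0.12, the macrophage list -0.054, Hspd1 -0.23, Timm50 -0.50, Ei24 -0.17 and Adgre1 -0.21, with 396 genes higher and 142 lower. The causes were not tested. Leaving out each suffix in turn gave 952 to 1078 genes higher and 398 to 448 lower, and medians of 1.73 to 1.93, 1.55 to 1.59 and -1.08 to -1.01 in the 3 lists, 0.06 to 0.27 for immediate early, 0.23 to 0.44 for heat shock and 0.79 to 0.92 for granulocyte precursor genes. At cluster resolution 0.5, 155 barcodes fell in 1 cluster of 10. At median depths of 1603.5 to 2019 UMIs per high-mitochondrial barcode, genes under the filter could not be compared. No paired analysis was possible because the results come from no test, and every ratio was already taken within its suffix.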
